A study of Mus musculus with 12 samples.

Results

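Livers of wild-type (WT) mice and of Pctp-/- mice, which lack phosphatidylcholine transfer protein in the whole body, were compared by RNA-seq on chow and on a methionine and choline deficient (MCD) diet that produces fatty and inflamed liver. The 4 groups were WT on chow, Pctp-/- on chow, WT on MCD and Pctp-/- on MCD, with 3 biological replicates each and 12 libraries of whole liver in all. The mice were male, and their age and the time on the diet are not given in the sources used here for these samples. The genes described here are the 9 Cyp3a genes whose Ensembl identifiers were listed among 35275 genes in the deposited table of FPKM, which are fragment counts scaled for gene length and sequencing depth. The genes were chosen by name, and 7 of the 9 had a mean FPKM of at least 0.5 and entered the test.

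Cyp3a genes encode cytochrome P450 enzymes of the endoplasmic reticulum that oxidise drugs, steroid hormones and bile acids, and the liver and the small intestine hold most of them. The xenobiotic receptors PXR (Nr1i2) and CAR (Nr1i3), each paired with RXR, switch these genes on, and HNF4A, C/EBP and FOXA factors set their basal level in hepatocytes. In mice the pattern of growth hormone release, acting through STAT5B, gives males and females different liver P450 enzymes. Cyp3a11 is the main inducible form in adult liver of both sexes, Cyp3a41 and Cyp3a44 are known as forms of the female liver, and Cyp3a16 is known from fetal and newborn liver.

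Several of these genes are near copies of each other. In the GENCODE M21 transcripts, the coding sequences of Cyp3a41a and Cyp3a41b differed at 2 of 1512 bases (99.87% identity), while Cyp3a41a differed from Cyp3a44 at 64 bases (95.77%) and from Cyp3a11 at 73 (95.17%). Cyp3a25 and Cyp3a59 formed a second pair, with 38 mismatches (97.48%), and Cyp3a57 was 94.23% identical to Cyp3a59. Cyp3a13 reached at most 76.47% with any other gene. The stretch shown here, coding bases 595 to 684, is the one of 90 bases where Cyp3a41a and Cyp3a44 differ most, and capitals mark the bases that differ from Cyp3a41a.
Cyp3a41a: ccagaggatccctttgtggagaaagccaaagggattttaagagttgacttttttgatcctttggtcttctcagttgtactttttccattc
Cyp3a41b: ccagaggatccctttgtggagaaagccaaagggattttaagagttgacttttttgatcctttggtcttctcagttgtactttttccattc
Cyp3a44: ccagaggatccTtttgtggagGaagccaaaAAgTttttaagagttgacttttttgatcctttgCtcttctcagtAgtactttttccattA
Cyp3a11: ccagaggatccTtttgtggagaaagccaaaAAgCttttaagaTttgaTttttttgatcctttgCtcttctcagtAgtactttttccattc
The pair of Cyp3a41 genes could not be told apart in these 90 bases, and Cyp3a44 and Cyp3a11 each carried 8 differences from them. Over the whole transcripts, 82.9% of all 150-base windows of Cyp3a41a, the read length of these libraries, occurred without a mismatch in Cyp3a41b. Windows shared with another gene made up 0.7% for Cyp3a25 and for Cyp3a59, and 0 windows were shared for Cyp3a44, Cyp3a11, Cyp3a13, Cyp3a16 and Cyp3a57. How reads that match more than 1 gene were assigned is not given in the sources used here. The split of reads between Cyp3a41a and Cyp3a41b is thus uncertain, and the sum of both was therefore also tested. If such reads were left out, that sum would be too low as well.

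**Figure D1:**
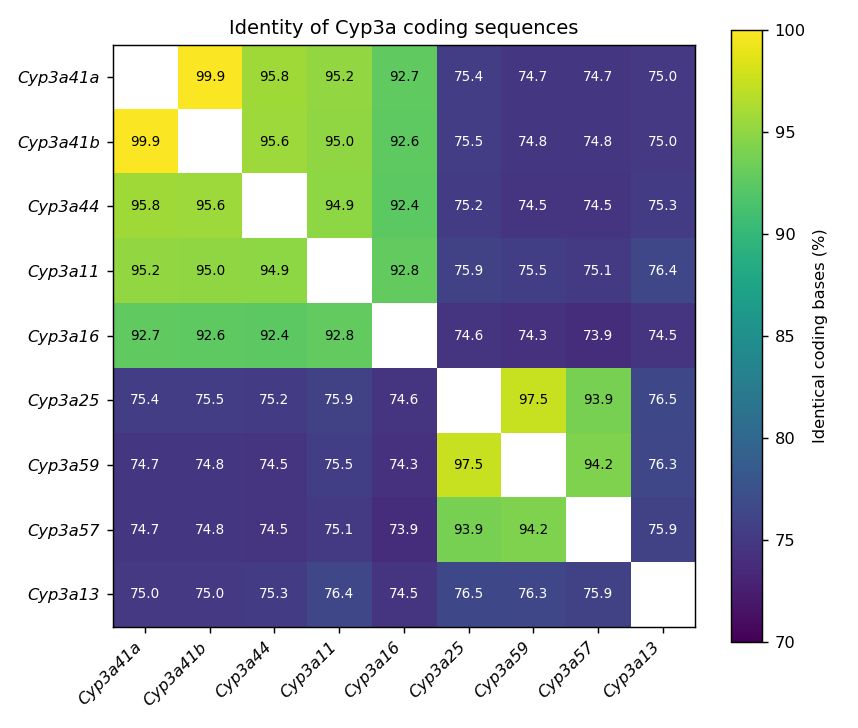
Share of identical coding bases (percent, colour and number) for each pair of the 9 Cyp3a genes, from GENCODE M21 transcripts. Cyp3a41a, Cyp3a41b, Cyp3a44, Cyp3a11 and Cyp3a16 form one block above 92%, Cyp3a25, Cyp3a59 and Cyp3a57 a second, and Cyp3a13 stands apart from both.

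All 9 genes lie on chromosome 5 of GRCm38, the build also called mm10 and named in the submitters' processing notes. Cyp3a11 (ENSMUSG00000056035) runs from 145854426 to 145879964, Cyp3a41a (ENSMUSG00000075551) from 145694049 to 145720136 and Cyp3a44 (ENSMUSG00000054417) from 145773983 to 145805874. The cluster of 8 that holds them spans 768 kb from 145345279 to 146113287, in the order Cyp3a57, Cyp3a16, Cyp3a41b, Cyp3a41a, Cyp3a44, Cyp3a11, Cyp3a25 and Cyp3a59. Cyp3a57 and Cyp3a59, the outermost genes, are on the plus strand and the 6 between them on the minus strand. Cyp3a13 is 7.42 Mb away, from 137892932 to 137921619 on the minus strand, and it contains the processed pseudogene Gm15502 on the same strand, whose exon does not overlap its exons.

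RefSeq promoter sequences were matched for all 9 genes, and those of Cyp3a41a, Cyp3a44 and Cyp3a11 are shown because the results turn on these 3 genes. Each runs 5′ to 3′ on the minus strand of GRCm38.p6 and starts 250 bases upstream of the RefSeq start, at chr5:145720137-145720386, chr5:145805875-145806124 and chr5:145879965-145880104. The window of Cyp3a11 was cut to 140 bases, because GENCODE M21 places the last 110 of its 250 bases inside the gene. Capitals mark AGGTCA, the half-site bound by PXR, CAR, RXR and other nuclear receptors, and CAAAGTCCA, an HNF4-type element, on either strand.
Cyp3a41a: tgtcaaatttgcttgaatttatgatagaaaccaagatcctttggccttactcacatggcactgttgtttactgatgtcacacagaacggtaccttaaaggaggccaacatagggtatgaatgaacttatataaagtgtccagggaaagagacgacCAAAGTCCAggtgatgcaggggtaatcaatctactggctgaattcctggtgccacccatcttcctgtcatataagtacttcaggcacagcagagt
Cyp3a44: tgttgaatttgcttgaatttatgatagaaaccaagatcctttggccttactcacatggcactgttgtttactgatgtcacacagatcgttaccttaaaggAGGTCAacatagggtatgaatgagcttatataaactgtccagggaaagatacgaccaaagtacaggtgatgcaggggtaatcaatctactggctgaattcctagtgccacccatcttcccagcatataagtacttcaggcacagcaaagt
Cyp3a11: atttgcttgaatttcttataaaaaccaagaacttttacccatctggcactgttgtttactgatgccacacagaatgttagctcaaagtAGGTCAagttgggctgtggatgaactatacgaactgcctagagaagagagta
AGGTCA occurred in the 250 upstream bases of 5 of the 9 genes (Cyp3a11, Cyp3a25, Cyp3a44, Cyp3a57 and Cyp3a59) and in 13.8% of 27025 promoters of the same length. It lay 150 bases upstream of the RefSeq start in Cyp3a44 and 162 in Cyp3a11, and it was not found in these windows of Cyp3a41a, Cyp3a41b, Cyp3a16 and Cyp3a13. CAAAGTCCA occurred in 4 genes (Cyp3a11, Cyp3a16, Cyp3a41a and Cyp3a41b) and in 0.381% of all promoters. In Cyp3a11 it lay 109 bases upstream of the RefSeq start, within the bases that GENCODE M21 places inside the gene. TTCNNNGAA, the element of STAT5, was found in 0 of the 9 windows and in 7.18% of all promoters. Direct repeats of AGGTCA spaced by 1 or 3 bases, which contain that motif, were also found in 0 of the 9 and in 0.037% and 0.007% of all. These promoters share ancestry, those of Cyp3a41a and Cyp3a41b at 249 of 250 bases, so the genes are not independent matches. The motifs were also chosen after these sequences were read. The shares over all promoters are therefore a description and no test of whether a motif is more frequent in this family.

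The libraries held 30486576 to 55179468 uniquely mapped reads (median 40511582). The MCD libraries had a higher share of uniquely mapped reads (85.7 to 87.5%, against 77.6 to 79.4% on chow) and of reads mapped to several places (6.5 to 7.4%, against 4.07 to 4.84%), so an effect of diet and one of sequencing cannot be told apart, while genotypes were compared within a diet. Pctp was at 1.21 to 2.65 FPKM in WT and 0.33 to 0.566 in Pctp-/- mice on chow, and at 3.61 to 7.9 and 0.156 to 0.329 on MCD. Xist stayed at or below 0.0883 FPKM and the Y-linked Ddx3y at or above 10.7 in all 12 libraries, as in male tissue. All 11 hepatocyte markers were detected in each group. Their summed FPKM ranged from 47900 to 53300 in WT and 51010 to 53040 in Pctp-/- mice on chow, and from 60190 to 68770 and 76920 to 82970 on MCD. The summed FPKM of 8 macrophage markers was 64.9 to 175 over the chow groups and 287 to 546 over the MCD groups. In whole liver, fewer cells of a type and less RNA per cell cannot be told apart.

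The groups were compared by limma, fitted to log2(FPKM + 1) of 12466 genes, all 12 libraries sharing 1 estimate of the spread, with Benjamini-Hochberg adjustment and a threshold of 0.05. The log2 differences in this text are on that scale, which understates the change of genes at a few FPKM. For a single gene, an exact permutation test of 3 against 3 libraries cannot give a two-sided p below 0.1.

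Cyp3a11 was by far the most abundant Cyp3a transcript in all 4 groups. On chow its FPKM was 2316, 1958 and 2581 in WT and 1998, 2012 and 2055 in Pctp-/- libraries, and the groups overlapped. On MCD it was 1891, 1813 and 1863 in WT and 983, 978 and 1093 in Pctp-/- libraries, so all 3 knockout libraries lay below all 3 WT libraries. By mean level it ranked 23rd of all genes in WT on chow, 25th in Pctp-/- on chow, 32nd in WT on MCD and 46th in Pctp-/- on MCD.

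Cyp3a25, also a hepatic form, was second in every group. Its FPKM was 275, 287 and 372 in WT and 249, 266 and 302 in Pctp-/- mice on chow, and 271, 428 and 409 in WT and 297, 353 and 437 in Pctp-/- mice on MCD. All 4 groups overlapped. Its near copy Cyp3a59 was at 20.0, 19.9 and 26.9 in WT and 16.5, 16.8 and 20.6 in Pctp-/- mice on chow, and at 32.8, 25.6 and 33.5 and at 19.1, 30.5 and 33.3 on MCD. The MCD libraries of Cyp3a59 tended to be high, but the lowest in each genotype overlapped with chow. Cyp3a13, which is expressed in intestine as well as liver, was at 9.83, 12.7 and 18.7 in WT and 7.5, 9.75 and 9.17 in Pctp-/- mice on chow. On MCD it was at 4.47, 6.6 and 7.11 in WT and 5.79, 6.08 and 9.04 in Pctp-/- libraries. The WT MCD libraries were thus all lower than the WT chow libraries, and the Pctp-/- groups overlapped.

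The forms known from female liver were almost absent on chow and present on MCD. Cyp3a44 was listed at 0 in 5 chow libraries and at 0.0214 FPKM in the sixth (WT), and rose to 44.5, 76.1 and 124 in WT and 104, 143 and 55.9 in Pctp-/- mice on MCD. The genotypes overlapped on MCD. Cyp3a41a was listed at 0 in all 6 chow libraries, and was at 4.97, 2.13 and 3.56 in WT and 20.7, 33.4 and 19.9 in Pctp-/- mice on MCD. Here the genotypes were clearly apart, with the lowest knockout library above the highest WT library. Cyp3a41b was at 0 in the same 6 chow libraries, at 1.02, 0.518 and 0.998 in WT and at 5.91, 1.44 and 1.61 in Pctp-/- mice on MCD, again without overlap.

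The last pair stayed under the filter on low values. Cyp3a57, the relative of Cyp3a59 at the other end of the cluster, was listed at 0 in 5 chow libraries and at 0.0267 in the sixth, and was at 2.00, 0.387 and 0.368 in WT and 0.948, 1.14 and 0.663 in Pctp-/- mice on MCD. Cyp3a16 did not exceed 0.123 FPKM in any library. With no filter on low values, Cyp3a57 was called higher on MCD in WT (adjusted p = 0.0248, limma) and in Pctp-/- mice (adjusted p = 0.0164), while Cyp3a16 was called in neither (adjusted p = 0.285 and 0.222).

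**Figure D2:**
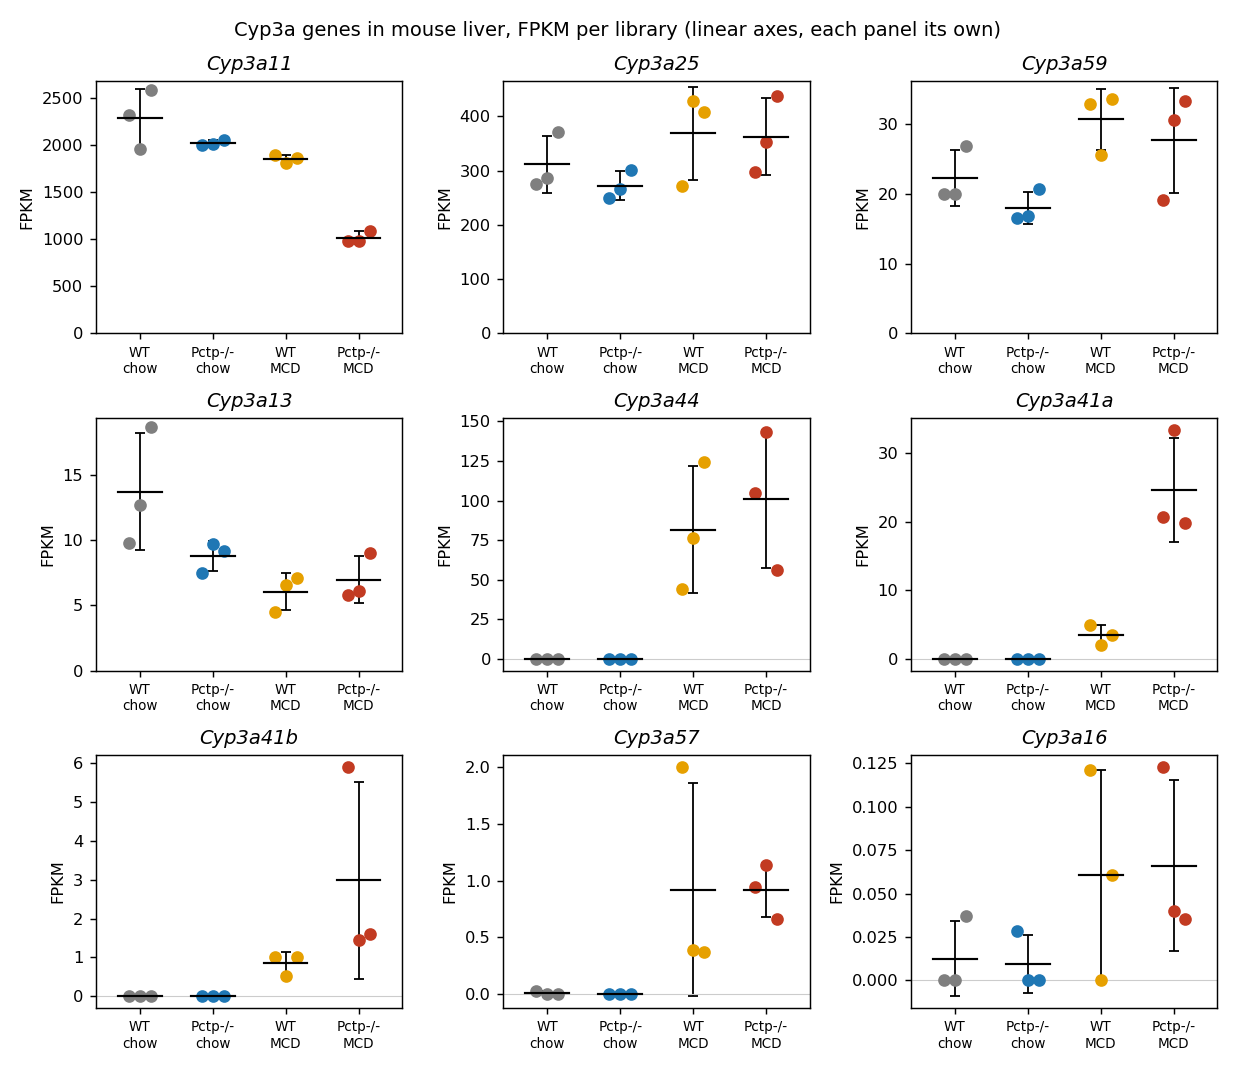
FPKM of each of the 9 Cyp3a genes (linear axes, a separate scale in each panel) by genotype and diet. Points are libraries, horizontal lines are group means and bars are 1 SD (n = 3 mice a group). Cyp3a11 is lowest in Pctp-/- mice on MCD (978 to 1093), and Cyp3a44, Cyp3a41a and Cyp3a41b appear on MCD.

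The order of the levels per gene length changed with the diet. On chow it ran Cyp3a11, Cyp3a25, Cyp3a59 and Cyp3a13 in both genotypes, each above the next in all 3 libraries, with the other 5 genes at or near 0 and not separable. On MCD, Cyp3a44 stood next after Cyp3a25 in both genotypes, above Cyp3a59 in every library. Cyp3a41a overlapped with Cyp3a13 in WT mice on MCD, and with Cyp3a59 in Pctp-/- mice, where it stood above Cyp3a13. Cyp3a41b overlapped with Cyp3a57 in WT and with Cyp3a13 in Pctp-/- mice on MCD.

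Summed over the 9 genes, WT livers held 2633 ± 360 FPKM on chow and 2348 ± 94.8 on MCD (mean ± SD of 3 mice). The sum in Pctp-/- livers was 2321 ± 59.2 FPKM on chow and 1545 ± 107 on MCD (mean ± SD of 3 mice), and the 3 knockout libraries on MCD lay below every other library. Cyp3a11 made up 86.0 to 88.4% of the sum in WT and 86.1 to 88% in Pctp-/- mice on chow, 76.3 to 84.0% in WT on MCD and 63.2 to 68.4% in Pctp-/- on MCD. The share of Cyp3a44 on MCD was 1.97 to 5.09% in WT and 3.39 to 9.24% in Pctp-/- mice. Within a library, the ratio of Cyp3a41a to Cyp3a44 was 0.0279 to 0.112 in WT and 0.199 to 0.355 in Pctp-/- mice on MCD, so that the 2 transcripts did not stand in a fixed ratio.

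**Figure D3:**
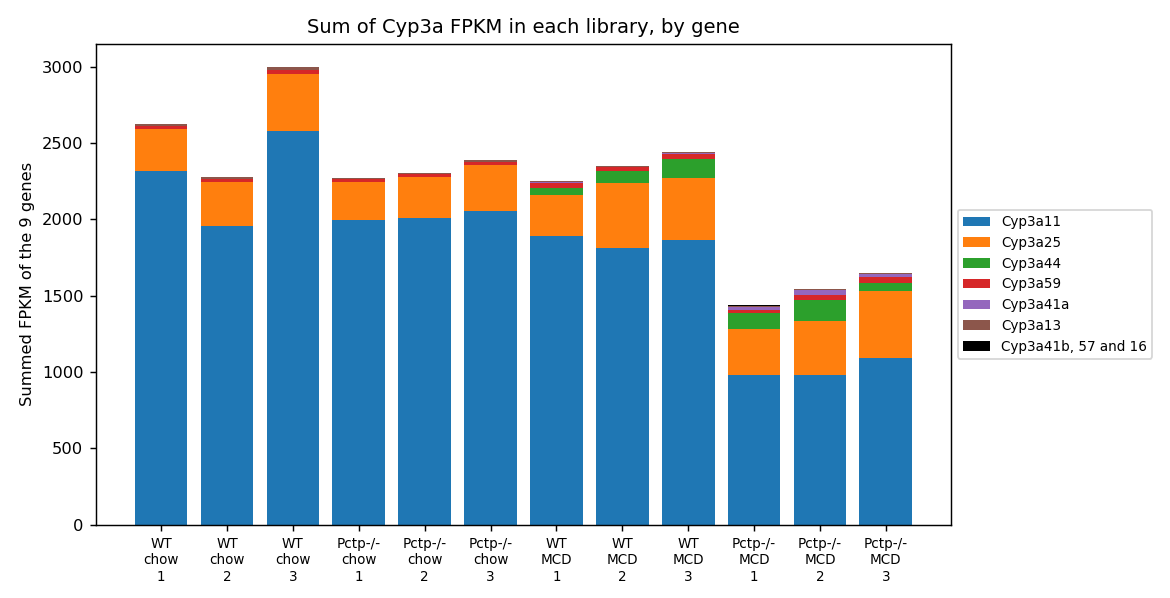
Summed FPKM of the 9 Cyp3a genes in each of the 12 libraries, stacked by gene from 0. The 3 Pctp-/- libraries on MCD reach 1437 to 1651 and the other 9 libraries 2252 to 2999.

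The first question was what loss of PC-TP did to these genes on chow. None of the 7 tested genes was called (0 of 7, where 0.136% of all genes tested were called, 0.0562% higher and 0.0802% lower), and 1 had an unadjusted p under 0.05, Cyp3a13. Its mean was 13.7 ± 4.51 FPKM in WT and 8.81 ± 1.17 in Pctp-/- mice (SD, n = 3), a log2 difference of -0.55 (SE 0.22, adjusted p = 0.647, limma). The groups of Cyp3a13 did not overlap, which held for 10.6% of all genes tested. The log2 difference of Cyp3a11 was -0.17 with a 95% confidence interval from -0.40 to 0.06, and those of Cyp3a25 and Cyp3a59 were -0.18 (-0.59 to 0.23) and -0.29 (-0.71 to 0.14). Cyp3a44 and both Cyp3a41 genes were listed at 0 or near it in both genotypes, so no difference is given. Pctp, the targeted gene, was itself not called on chow (log2 difference -1.07, SE 0.23, adjusted p = 0.15, limma). A gene not called on chow may thus still differ.

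On MCD, the genotypes differed in 2 of the 7 tested genes, in opposite directions, where 0.818% of all genes tested were called, 0.297% higher and 0.521% lower. Cyp3a11 fell from 1856 ± 39.5 FPKM in WT to 1018 ± 65.1 in Pctp-/- mice (SD, n = 3), or 45.1% lower. Its log2 difference was -0.87 (SE 0.11, adjusted p = 0.00266, limma). Cyp3a41a rose from 3.55 ± 1.42 to 24.7 ± 7.57 FPKM (SD, n = 3), a ratio of means of 6.94 and a log2 difference of 2.51 (SE 0.22, adjusted p = 0.000257). With the FPKM of Cyp3a41a and Cyp3a41b summed the log2 difference was 2.43 (adjusted p = 0.000212), so the uncertain split between them did not carry the call. The spread behind the SE of Cyp3a41a is taken also from its chow libraries, all at 0, so this SE may be too small for MCD. Both calls held under all 21 alternatives, with adjusted p from 0.00182 to 0.0421 for Cyp3a11 and from 0.000155 to 0.0337 for Cyp3a41a (limma). Over these alternatives the log2 difference ran from -0.92 to -0.63 for Cyp3a11 and from 2.26 to 2.80 for Cyp3a41a.

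Cyp3a41b had a ratio of means of 3.53 between the genotypes on MCD and no overlap, but 1 knockout library at 5.91 FPKM stood far above the other two and the gene was not called (log2 difference 0.95, SE 0.30, adjusted p = 0.154, limma). Groups without overlap on MCD, as for Cyp3a11 and Cyp3a41a, were found for 26.6% of all genes tested. Cyp3a41b passed the filter on low values only through its Pctp-/- MCD libraries, so its groups are not set beside that share. The other 4 tested genes were not called. Cyp3a44 differed by 0.33 (95% confidence interval -0.41 to 1.07) and Cyp3a13 by 0.17 (-0.32 to 0.66). Cyp3a25 differed by -0.02 (-0.43 to 0.39), a sign that turned under median-of-ratios scaling (0.09) and quantile normalization (0.03), and Cyp3a59 by -0.17 (-0.59 to 0.25). Of the 11 hepatocyte markers, 0 were called between genotypes on MCD by limma and 4 had an unadjusted p under 0.05. Their higher sum in Pctp-/- mice was mostly Alb, at 43899 FPKM in WT and 57218 in Pctp-/- mice. Apoa1 (6215 and 6113) and Hp (2248 and 2214) were no higher. All the other markers were higher, with ratios of means from 1.06 (Apob) to 2.12 (Trf). The part of these markers in the values of Cyp3a11 was not tested.

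More of the family was called between the diets than between the genotypes, as was more of all genes tested. As given above, an effect of diet cannot be told apart here from one of sequencing. In WT mice 5 of the 7 tested genes were called, 3 higher and 2 lower on MCD, where 57% of all genes tested were called, 34.5% higher and 22.5% lower. Cyp3a44, Cyp3a41a and Cyp3a41b passed the filter on low values only through their MCD libraries, so their part in this count was bound to differ. The log2 difference was 6.24 for Cyp3a44 (SE 0.34, adjusted p = 8.7e-08, limma), 2.14 for Cyp3a41a (SE 0.22, adjusted p = 8.8e-06) and 0.87 for Cyp3a41b (SE 0.30, adjusted p = 0.0268). No fold is given for these genes, since chow libraries were listed at 0.

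Cyp3a13 fell by 55.8% in WT mice on MCD, from 13.7 to 6.06 FPKM, with a log2 difference of -1.04 (SE 0.22, adjusted p = 0.00188, limma). Cyp3a11 fell by 18.8%, from 2285 ± 313 to 1856 ± 39.5 FPKM (SD, n = 3), with a log2 difference of -0.29 (SE 0.11, adjusted p = 0.0318). That call was lost without WT chow library 1 or 3 or WT MCD library 2 or 3, with adjusted p of 0.0626, 0.141, 0.0837 and 0.0623. Cyp3a41b lost its call without any 1 of the WT chow libraries (adjusted p from 0.0583 to 0.0609) or without WT MCD library 1 (0.076) or 3 (0.074). Without WT chow library 1 or WT MCD library 3, 3 genes in place of 5 were called.

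Cyp3a59 had a log2 difference of 0.45 in WT mice (SE 0.19, adjusted p = 0.067, limma) and was called without WT chow library 3 (adjusted p = 0.0348), WT MCD library 2 (0.0431) or Pctp-/- MCD library 1 (0.0222). Cyp3a25 had one of 0.23 (adjusted p = 0.319) and was called without WT MCD library 1 (adjusted p = 0.0488), the library at 271 FPKM. Of the 4 tested genes that were also present on chow (Cyp3a11, Cyp3a13, Cyp3a25 and Cyp3a59), Cyp3a11 and Cyp3a13 had WT groups without overlap, as did 63.7% of all genes tested.

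In Pctp-/- mice, 5 of the 7 tested genes were called, 4 higher and 1 lower on MCD, where 50.3% of all genes tested were called, 26% higher and 24.4% lower. The log2 difference was 6.57 for Cyp3a44 (SE 0.34, adjusted p = 7.8e-08, limma), 4.64 for Cyp3a41a (SE 0.22, adjusted p = 4.8e-08) and 1.82 for Cyp3a41b (SE 0.30, adjusted p = 0.000386). These 3 were again tested only because of their MCD values. Cyp3a11 fell by 49.6%, from 2021 ± 29.7 to 1018 ± 65.1 FPKM (SD, n = 3), a log2 difference of -0.99 (SE 0.11, adjusted p = 1.4e-05), and its call held under all 21 alternatives. Cyp3a59 rose by 0.56 (SE 0.19, adjusted p = 0.0296), and lost its call without Pctp-/- chow library 1 or 2 (adjusted p = 0.076 and 0.0836) or Pctp-/- MCD library 2 or 3 (0.103 and 0.124).

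Cyp3a13, which fell in WT mice, had a log2 difference of -0.32 in Pctp-/- mice (95% confidence interval -0.80 to 0.17, adjusted p = 0.262, limma) and was not called. Cyp3a25 had one of 0.40 (adjusted p = 0.0985), and was called without WT MCD library 1 (adjusted p = 0.0454), which lies outside this comparison but shares its estimate of the spread. Of the 4 tested genes that were also present on chow, Cyp3a11 had Pctp-/- groups without overlap, as did 59.7% of all genes tested. The diet comparisons in the 2 genotypes use different libraries, whereas each shares libraries with the genotype comparisons above.

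**Figure D4:**
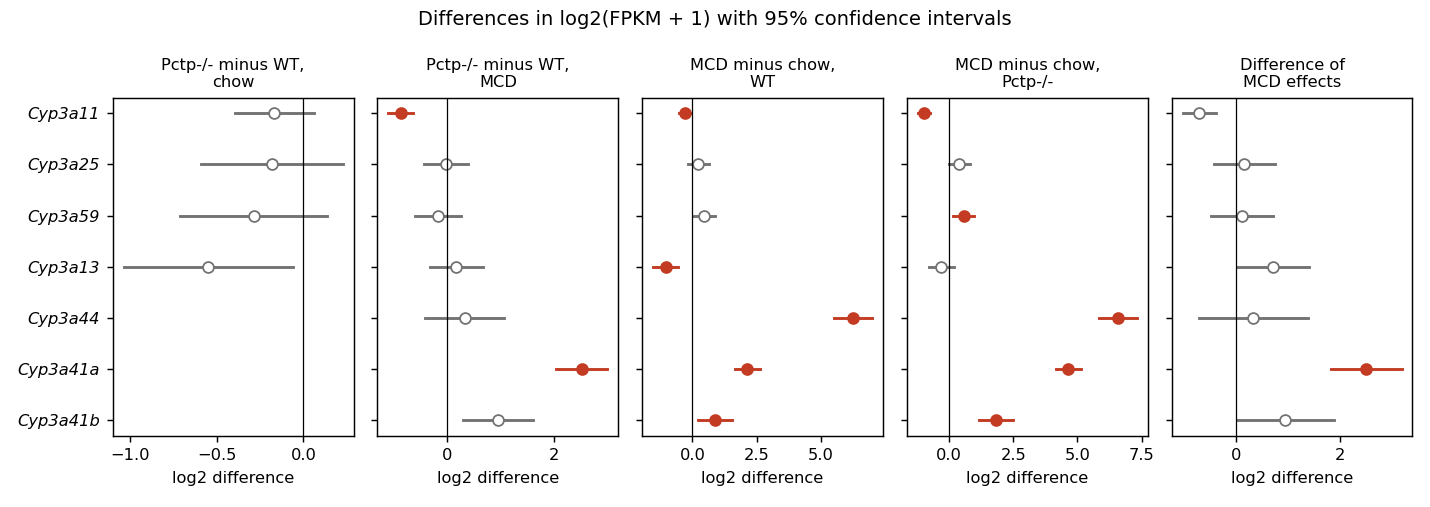
Differences in log2(FPKM + 1) for the 7 tested Cyp3a genes in 5 comparisons (horizontal axis, scale set per panel). Points are limma estimates and lines their 95% confidence intervals, and filled red points have an adjusted p under 0.05. Cyp3a11 is left of 0 in the MCD comparison of genotypes (-0.87) and Cyp3a41a right of it (2.51), and genes at 0 or near it in both chow groups are left out of the first panel.

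Whether the response to diet differed between the genotypes was tested as the difference of the MCD effects, Pctp-/- minus WT. It was called for 1 of the 7 tested genes, where 0.0963% of all genes tested were called, 0.0401% higher and 0.0562% lower. That gene was Cyp3a41a, at 2.51 (SE 0.31, adjusted p = 0.0144, limma). As every chow library of Cyp3a41a was at 0, this difference is the same as its genotype difference on MCD. Those chow libraries have no spread but enter the shared estimate, so the SE and adjusted p of Cyp3a41a may be too small. Cyp3a41a lost its call without WT chow library 2 (adjusted p = 0.0506, limma) or Pctp-/- MCD library 2 (0.05001), so that 0 genes were called. For Cyp3a11 the difference was -0.70 (SE 0.15, 95% confidence interval -1.02 to -0.38), which had an unadjusted p of 0.000498 but an adjusted p of 0.0901 and was not called, with adjusted p from 0.0563 to 0.226 over 20 alternatives. Cyp3a13 (0.72, adjusted p = 0.308) and Cyp3a41b (0.95, adjusted p = 0.323) also had an unadjusted p under 0.05, and Cyp3a44 (0.34), Cyp3a25 (0.17) and Cyp3a59 (0.12) did not.

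Position in the cluster can be read beside these differences. Cyp3a41b, Cyp3a41a and Cyp3a44 are next to each other on the minus strand, from 145558664 to 145805874, and appeared together on MCD. Cyp3a16, their neighbour on one side with 92.4 to 92.7% coding identity, stayed at or under 0.123 FPKM, and Cyp3a11, on the other side, moved in the other direction. Outside the family, 31 genes of the table lie within 500 kb of the cluster and 15 were tested. On MCD 3 of these were higher and 2 lower in WT, and 3 higher and 7 lower in Pctp-/- mice, beside the 57% and 50.3% of all genes tested that were called. The count in WT became 3 higher and 7 lower under both median-of-ratios scaling and quantile normalization, so the counts do not set the genotypes apart. Among those that rose in WT were Bud31 at 1.25 and Atp5j2 at 1.22. Between genotypes 0 of the 15 were called on either diet, and 1 on chow and 3 on MCD had an unadjusted p under 0.05 (limma).

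**Figure D5:**
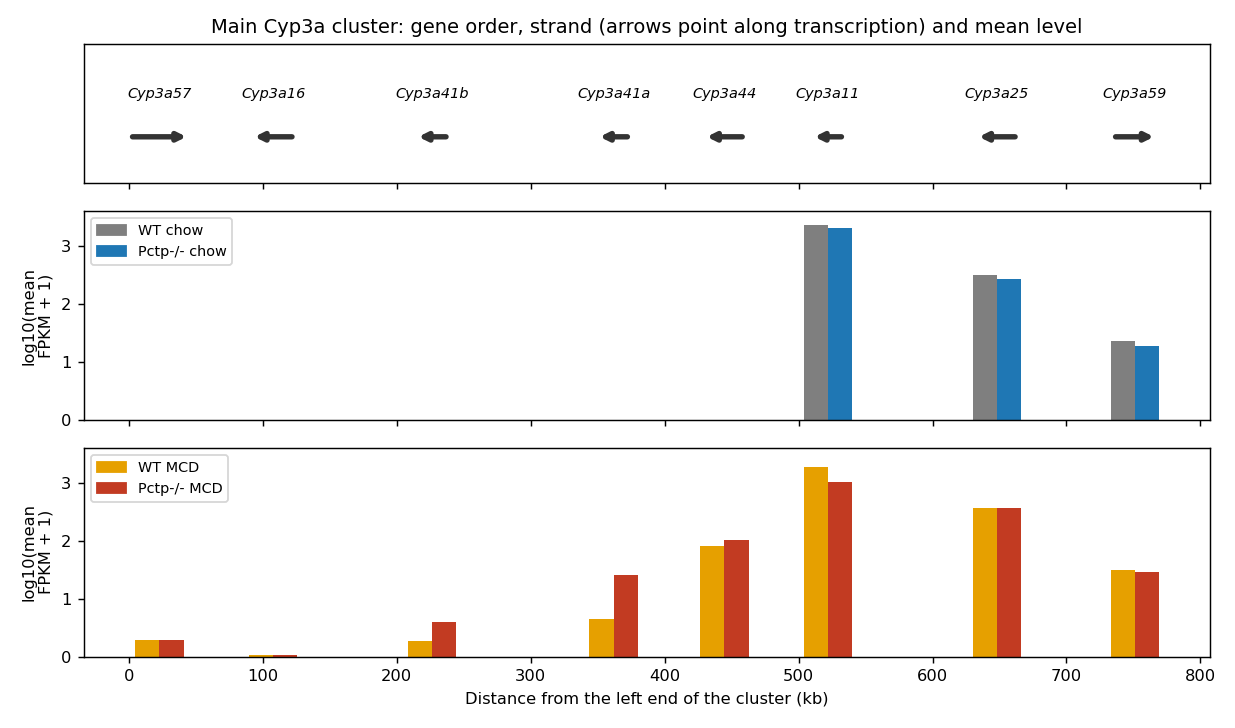
Gene order and strand in the main Cyp3a cluster (top), with the mean level of each gene as log10(mean FPKM + 1) on chow (middle) and MCD (bottom), against distance in kb from its left end. Bars are group means of 3 mice, side by side for WT and Pctp-/-. Cyp3a41b, Cyp3a41a and Cyp3a44 have no visible bar on chow and show one on MCD.

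Of 19 tested receptors and factors that act on Cyp3a genes, 0 were called between genotypes on chow or on MCD by limma, and 2 on chow and 1 on MCD had an unadjusted p under 0.05. Nr1i2, the gene of PXR, was at 27.4 ± 2.99 FPKM in WT and 24.2 ± 3.70 in Pctp-/- mice on MCD (SD, n = 3), with a log2 difference of -0.18 (adjusted p = 0.672), and Nr1i3, the gene of CAR, at 44.4 ± 7.05 and 58.0 ± 10.8 (0.37, adjusted p = 0.394). With diet, 2 were higher and 10 lower in WT, and 4 higher and 8 lower in Pctp-/- mice, where 57% and 50.3% of all genes tested were called. The 4 became 1 under median-of-ratios scaling. The C/EBP genes had the largest falls, Cebpb by 2.40 in WT and 3.25 in Pctp-/- mice and Cebpa by 2.04 and 1.48 on the log2 scale, and Foxa3 fell by 1.32 and 1.39. Foxa2 fell by 1.55 in WT, and Ppargc1a, a coactivator, rose by 1.35 in Pctp-/- mice and 1.04 in WT.

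Other targets of PXR and CAR were examined as a list of 36 genes, 35 of them tested, that was drawn up with earlier results of these data known. Between genotypes on MCD, 9 were lower and 0 higher in Pctp-/- mice, where 0.521% of all genes tested were called lower. The 9 were 5 under median-of-ratios scaling and 7 under quantile normalization, which also called 1 higher. Cyp2b10, the classic CAR target, fell from 185 ± 85.4 to 20.1 ± 3.55 FPKM (SD, n = 3), with a log2 difference of -3.02 (SE 0.43, adjusted p = 0.00738, limma). The 3 WT libraries ranged from 87.2 to 244 FPKM and the 3 knockout libraries from 17.0 to 24.0, so the groups were far apart. Gsta1, a glutathione transferase, fell by 2.84 (adjusted p = 0.0467), Tsku, which encodes a secreted protein, by 2.09 (adjusted p = 0.0113), and Cyp2c55, a P450, by 1.51 (adjusted p = 0.0027).

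On chow 0 of these 35 genes were called between genotypes by limma, and 2 had an unadjusted p under 0.05. With diet, 17 were higher and 8 lower in WT and 14 higher and 9 lower in Pctp-/- mice, where 57% and 50.3% of all genes tested were called, led in both by Cyp2a4 (5.77 and 6.78) and Cyp2b9 (5.87 and 5.28). The difference of the MCD effects was called for 1, Cyp2c55 (-1.61, adjusted p = 0.0488, limma), while that of Cyp2b10 was -3.12 (adjusted p = 0.0694). The median over the 35 genes between genotypes on MCD was -0.42, beside a median of -0.09 over all genes tested. Under median-of-ratios scaling the 2 medians were -0.31 and -0.01.

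Liver genes with a sex bias were examined because Cyp3a41 and Cyp3a44 are among them. Of 32 listed female-biased genes outside the family, 27 were tested, and 23 were higher and 0 lower on MCD in WT mice, 24 and 0 in Pctp-/- mice, where 34.5% and 26% of all genes tested were called higher. Their median log2 difference was 2.07 in WT and 2.66 in Pctp-/- mice. Of 33 male-biased genes, 29 fell and 2 rose in WT (1 under either other scaling) and 28 fell and 1 rose in Pctp-/- mice, where 22.5% and 24.4% of all genes tested were called lower, with medians of -1.97 and -1.74. Mup3, a major urinary protein, went from 5118 to 6933 FPKM over both chow groups to 191 to 286 in WT and 469 to 507 in Pctp-/- mice on MCD.

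Between genotypes on MCD the sex-biased lists moved less and in mixed directions. Among female-biased genes 3 were higher, with Sult3a1 (3.01, adjusted p = 0.0171) and Sult3a2 (2.25, adjusted p = 0.0329) among them, and 2 lower, Cyp2b10 (also in the list of CAR targets) and Akr1b7 (-0.76, adjusted p = 0.0329), by limma. Akr1b7 passed the filter on low values only through its WT MCD libraries (mean 1.62 FPKM, against 0.553 in Pctp-/- mice), so its call carries little weight. Sult3a1, a sulfotransferase, was at 0.702 to 8.13 FPKM in WT and 34.1 to 55.9 in Pctp-/- mice. Among male-biased genes only Mup3 was called on MCD, and it was higher in Pctp-/- mice (0.99, adjusted p = 0.0136). The lists of female-biased genes and of PXR and CAR targets share 6 genes.

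In the growth hormone and STAT5 axis, 19 of 20 listed genes were tested. On MCD 2 were higher and 8 lower in WT, where 34.5% of all genes tested were called higher and 22.5% lower. In Pctp-/- mice 2 were higher and 7 lower, where 26% of all genes tested were called higher and 24.4% lower. Only the totals, without regard to direction, were near the 57% and 50.3% of all genes tested that were called. Onecut1, a liver transcription factor, fell by 2.78 in WT, and Igfals, a growth hormone target, by 1.61 in WT and 0.91 in Pctp-/- mice on the log2 scale. Between genotypes, Bcl6, a repressor of female-biased genes that is also in the male-biased list, was higher in Pctp-/- mice on chow (13.7 to 24.4 FPKM, against 3.15 to 5.54 in WT, log2 difference 1.87, adjusted p = 0.00536, limma). Bcl6 overlapped between genotypes on MCD (3.06 to 4.43 against 3.49 to 5.90), where Ghr, the growth hormone receptor, was higher in Pctp-/- mice (0.42, adjusted p = 0.0334). On chow, the Cyp3a41 genes and Cyp3a44 were at or near 0 in both genotypes, where no lower level could be seen, and a link to Bcl6 was not tested.

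P450 enzymes also need electrons and heme. Of 14 genes for electron transfer partners and heme synthesis, 0 were called between genotypes on either diet, with 0 on chow and 4 on MCD at an unadjusted p under 0.05 (limma). Por, the reductase that feeds Cyp3a enzymes, was at 109 ± 26.9 FPKM in WT and 85.9 ± 23.1 in Pctp-/- mice on MCD (SD, n = 3), with a log2 difference of -0.34 (adjusted p = 0.48). With diet, 2 were higher and 5 lower in WT and 2 higher and 9 lower in Pctp-/- mice, beside 57% and 50.3% called among all genes tested. Alas1, the rate-limiting enzyme of heme synthesis, fell by 2.03 in WT and 1.55 in Pctp-/- mice, Cyb5r3 by 1.06 and 0.99, and Hmox1, which degrades heme, rose by 1.83 and 1.15.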

How the data were processed

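The main table deposited by the authors gives FPKM for each gene in each library. The aligner, the counter and the handling of multiply mapped reads are not given in the sources used here. A second deposited table, holding read totals and percent values of mapping and quality, was used for depth only. Symbols were found for 34490 of 35275 identifiers. limma 3.58.1 in R 4.3.3 was fitted to log2(FPKM + 1) with 4 group means, all 12 libraries and a mean-variance trend, over 12466 genes (mean FPKM 0.5 or more), and was tested on simulated data. The study used a Wald test. limma was used here because the values are FPKM. An adjusted p under 0.05 was called, with no minimum fold change. FPKM keep no counts, so no counting interval is given.

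The members and lists were chosen with earlier results of these data known, and the motifs and the coding stretch after the sequences were read. Of each list, up to 4 called genes with the largest log2 differences were named in a comparison, and some of these are not reported here. Nr1i2, Nr1i3, Por, Akr1b7, Bud31, Atp5j2, Fabp2, Vil1, Cyp2b10 and Ppargc1a have values that were added after they were seen. Sequences came from GENCODE M21 and RefSeq (GRCm38.p6), and were aligned with Biopython 1.88. Alternatives were another pseudocount, no filter, 2 scalings, a replicate block, no trend, a robust fit, only the compared libraries, the Cyp3a41 genes summed, and each library left out.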

Additional observations from a re-analysis of the deposited data

Results flagged for a closer look

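The response of Cyp3a41a to MCD differed between the genotypes, by a test of the difference itself (2.51 on the log2 scale, adjusted p = 0.0144, limma). With every chow library at 0, this is the same value as the genotype difference on MCD and not a separate result. Cyp3a41a was higher on MCD in all 6 libraries of both genotypes, and higher in 3 of 3 Pctp-/- than in 3 of 3 WT libraries. Leaving out WT chow library 2 or Pctp-/- MCD library 2 took the adjusted p to 0.0506 and 0.05001. Most 150-base windows of this gene also match Cyp3a41b, and the difference for the sum of both was 2.43 (adjusted p = 0.0143, limma). The chow libraries, all at 0, add no spread to the shared estimate, so these adjusted p may be too small.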

How the results depend on the processing

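The number of Cyp3a genes called between genotypes was 0 on chow and 2 on MCD under each alternative. For MCD against chow in WT, where 5 were called, leaving out 1 library gave 3 to 6. For the difference of the MCD effects, where 1 was called, it gave 0 to 1, and a pseudocount of 0.1 gave 0, with Cyp3a41a at 2.80 (adjusted p = 0.0622, limma). The replicate numbers are shared between groups, but the deviations of same-numbered libraries correlated at -0.097 to 0.225 over 18 pairs, 8 of them over 0.1, so the numbers were not taken to pair the mice. With a replicate block, 6 genes were called for diet in each genotype.

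Of 661 single-gene values, 617 kept their sign and side of the threshold. The call of Cyp3a11 for MCD in WT was also lost without the filter (adjusted p = 0.106) and with the compared libraries alone (0.114). Those of Cyp3a41b in WT (0.0572) and of Cyp3a59 in Pctp-/- mice (0.0621) were lost without the filter, the first also under quantile normalization (0.0505) and the second with the compared libraries alone (0.0557). Cyp3a59 in WT was called with the block (0.0294) or the compared libraries alone (0.0361), and Cyp3a25 in Pctp-/- mice with the block (0.0158). In 14 cases, all uncalled, the sign turned. Between genotypes on MCD, Cyp3a25 became 0.093 under median-of-ratios scaling and 0.028 under quantile normalization. With 1 library left out it ran from -0.22 to 0.12, Cyp3a13 from -0.0055 to 0.28, Cyp3a44 from -0.045 to 0.70 and Cyp3a59 from -0.32 to 0.065. The difference of the MCD effects ran from -0.034 to 0.71 for Cyp3a44, -0.041 to 0.30 for Cyp3a25 and -0.033 to 0.35 for Cyp3a59. The cause was not tested.

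Scaling moved the median of all genes for MCD in WT from 0.11 to 0.01. Of the genes called between genotypes on MCD, 37 of 102 were higher as given, 34 of 69 under median-of-ratios scaling and 69 of 110 under quantile normalization, for MCD in WT 4300 of 7110, 3609 of 7107 and 3706 of 7184, and for the difference of the MCD effects 5 of 12, 5 of 6 and 13 of 18. Over all genes, 17 were called between genotypes on chow, but 10 without the filter, 32 with the block and 4 with the compared libraries alone. On MCD 102 became 19 with the compared libraries alone, and the 12 for the difference of the MCD effects became 3 with a pseudocount of 0.1 and 59 with the block. With 3 mice a group, small differences could not be resolved.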

Other observations

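The genes outside the family whose log2(FPKM + 1) was most like that of a Cyp3a gene over the 12 libraries are given with Pearson's r, as a description without a test, since the libraries share diet and genotype. For Cyp3a11 they were Csad (0.957), Gstm1 (0.953) and Vrk3 (0.941), and within the 6 MCD libraries r was 0.951, 0.945 and 0.987, against 0.651, 0.690 and 0.418 within the 6 chow libraries. Csad encodes an enzyme of taurine synthesis and Gstm1 a glutathione transferase that fell by 0.79 between genotypes on MCD.

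For Cyp3a44 the most alike were Apcs (0.996), Vnn1 (0.996) and Ak7 (0.994), where nearly all of the spread was between the diets. Cyp3a41a was most like Rian (0.986), an imprinted noncoding RNA, with r of 0.967 within the 6 MCD libraries, then Dsg1c (0.969) and Hnmt (0.966). For Cyp3a25 the first were Abcg5 (0.892), a sterol transporter, and Soat2 (0.885), a cholesterol esterifying enzyme, and for Cyp3a13 Auh (0.934) and Slc22a4 (0.923). Cyp3a41b was most like Nxpe2 (0.939).

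Intestinal cells also express Cyp3a genes. Of 7 enterocyte markers, 5 were at 0 in every WT MCD library and 4 in every Pctp-/- MCD library. Of the others Fabp2 was higher on MCD (159 against 44.4 FPKM in WT) and so was Vil1 (4.52 against 0.0716). Their part in the values of Cyp3a13 was not tested.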
